A study of Mus musculus with 3 samples.

Results

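Postn, Sparc, Dcn, Lum, Fn1, Tnc, Thbs1, Pdgfra, Pdgfrb and Gsn encode matricellular proteins, fibronectin, small proteoglycans, growth factor receptors and an actin regulator. These genes are commonly read as marks of fibroblasts and of their activation. The 10 genes were chosen by name, with earlier results of these data known. Each matched a separate locus of the deposited transcript annotation. All 10 were therefore followed among the 20117 loci that carried a RefSeq protein-coding transcript (mRNA loci) and the 48626 loci of the expression table. From E10.5 to E13.5, Postn, Lum, Tnc, Pdgfra and Gsn rose and Fn1 fell. From E13.5 to the adult, Postn, Sparc, Lum and Tnc fell, while Dcn, Fn1 and Gsn rose. The 10 genes therefore did not follow a common time course, and their summed level was mostly Sparc and Fn1 in the E10.5 library, Sparc and Postn in the E13.5 library and Dcn and Gsn in the adult library.

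The data are levels of RNA in heart ventricles of C57BL/6 mice of E10.5 and E13.5 embryos (E, embryonic day) and of adults of 8 weeks, and the labels name no genetic change or treatment at any stage. Each stage was represented by 1 paired-end, strand-aware library from total RNA, and the number of animals behind each library is not given in the sources used here. The values are FPKM, the number of fragments divided by transcript length and by library size, so that levels of different genes can be compared per length. The study used the libraries to find long non-coding RNAs of the developing ventricle, and here the same tables were asked how the 10 genes differ between stages.

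With 1 library per stage there is no replicate, so no difference had a test and no value has a standard deviation. Changes are given as differences of log2(FPKM + 1), which understate the change of low genes. A gene is said to have risen or fallen where this difference was 1 or more in either direction, that is a change of at least 2-fold in FPKM + 1. Low FPKM values come in steps, and taking the smallest step as 1 fragment gave about 13.8, 26.7 and 13.8 fragments per FPKM and kb of transcript in the E10.5, E13.5 and adult libraries. The 95% intervals given below are exact Poisson intervals on these approximate numbers. They cover counting error only, and leave out the variation between animals, which could not be measured.

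A matricellular protein is secreted into the extracellular matrix but acts mainly by binding receptors, growth factors and other matrix proteins rather than by building fibers. In the heart such proteins are abundant while cushions, valves and the fibrous skeleton form, are low in the healthy adult myocardium and return after injury. Fibroblasts of the ventricle arise mostly from the epicardium and also from the endocardium, and PDGF receptor alpha marks them while PDGF receptor beta is the receptor of pericytes and smooth muscle cells. Several of the 10 genes are also made by other cells, among them endocardial, endothelial, mural and cushion cells.

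All 10 genes were at 1 FPKM or more in all 3 libraries, and estimated fragments ranged from 134 for Tnc in the adult to 34994 for Fn1 at E10.5. In a bulk library, fewer cells of a type and less RNA per cell cannot be told apart, which holds for every level below. The changes were read against the 12569 mRNA loci that reached 1 FPKM in any library. From E10.5 to E13.5, 5 of the 10 genes rose, against 5.89% of these loci, and 1 of 10 fell, against 4.85% (10.7% in either direction). From E13.5 to the adult, 3 rose, against 13.0% of these loci, and 4 fell, against 32.1% (45.1% in either direction). Between the ends of the series, E10.5 and the adult, 3 were higher, against 14.8%, and 2 were lower, against 27.3% (42.1% in either direction). The median change of the 10 genes was 1.13, -0.67 and 0.53 in the 3 comparisons, and that of all mRNA loci was 0.17, -0.50 and -0.40. The comparisons share libraries, so the E13.5 values enter both steps. Because the 10 genes were chosen with earlier results of these data known, the counts beside the shares are descriptions only.

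**Figure D1:**
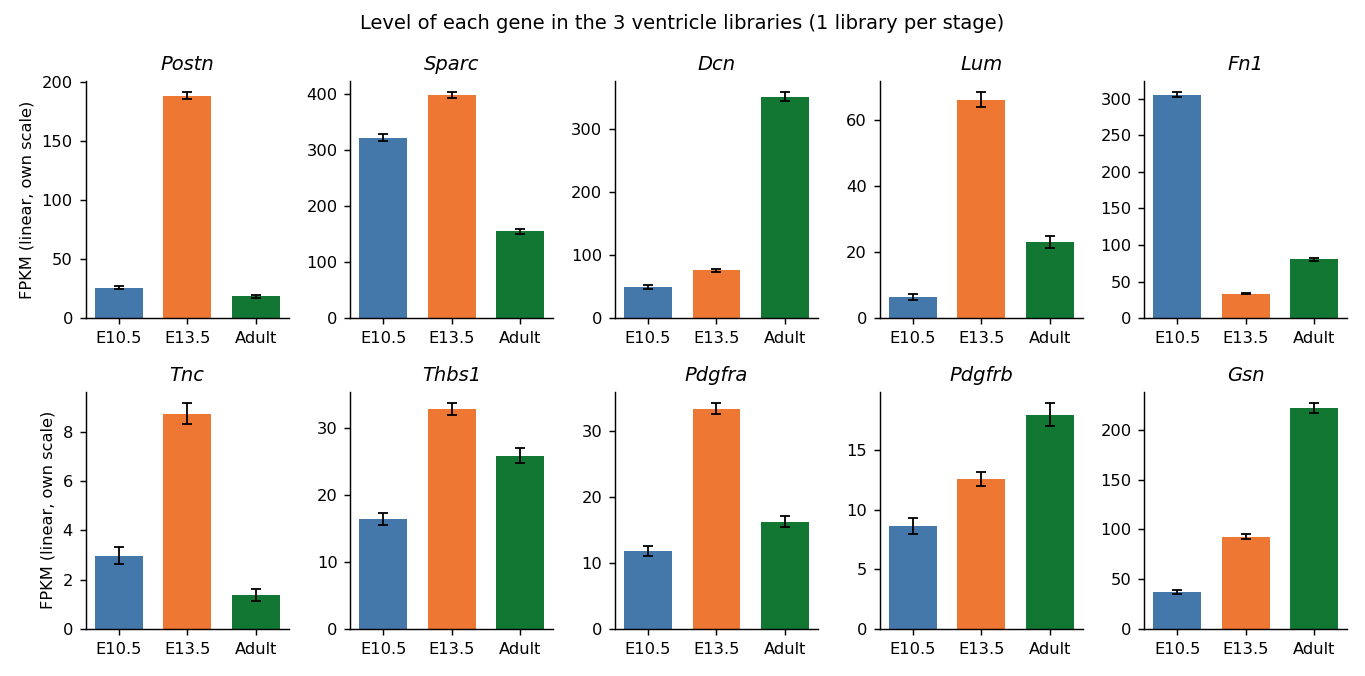
Level of each gene in FPKM (linear axis, a scale of its own for each gene) in the E10.5, E13.5 and adult libraries, with 1 library per bar and 95% Poisson counting intervals as error bars. Postn, Sparc, Lum, Tnc, Thbs1 and Pdgfra were highest at E13.5, Dcn, Pdgfrb and Gsn in the adult and Fn1 at E10.5.

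Postn (chromosome 3, 54361104 to 54391041, plus strand, GRCm38) encodes periostin, a fasciclin-domain protein of cushion mesenchyme and activated fibroblasts that promotes collagen crosslinking. Its E10.5 level was 25.8 FPKM (95% interval 24.4 to 27.4), its E13.5 level 188 FPKM (186 to 191) and its adult level 18.6 FPKM (17.3 to 19.9). The E13.5 library stood far above the other two, which were close to each other. Postn rose by 2.82 on the log2 scale to E13.5, or 7.30-fold in FPKM, and 35 of 12569 mRNA loci rose further. It then fell by 3.28, and its adult level was 0.0985 of that at E13.5. Between E10.5 and the adult the difference was -0.46, near the median of all mRNA loci. The promoter window of Postn is shown because it holds a TATA box word close to the start. It comprises the 250 bases before the start at position 54361107 (chr3:54360857-54361106, plus strand, GRCm38.p6, from RefSeq), with the letters TATAAA, 26 to 21 bases before the start, in capitals:
Postn promoter: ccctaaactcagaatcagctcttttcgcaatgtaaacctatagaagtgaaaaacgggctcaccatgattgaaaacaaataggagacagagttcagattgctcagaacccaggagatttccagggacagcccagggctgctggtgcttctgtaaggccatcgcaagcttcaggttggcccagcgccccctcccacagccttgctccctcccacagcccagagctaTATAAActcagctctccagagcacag

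Sparc (chromosome 11, 55394499 to 55420272, minus strand) encodes osteonectin, a collagen-binding matricellular protein needed for collagen assembly. For Sparc the E10.5 library gave 322 FPKM (316 to 329), the E13.5 library 399 (394 to 404) and the adult library 155 (151 to 160). Sparc was the highest of the 10 genes in both embryonic libraries and the third highest in the adult. Among all mRNA loci at 1 FPKM or more in any library, it held ranks 100, 108 and 267 in stage order. The step to E13.5 was 0.31, and it became -0.01 when libraries were scaled to a common mRNA sum without globin and mitochondrial loci. Sparc fell by 1.35 from E13.5 to the adult, where 2702 of 12569 mRNA loci fell further. Its difference between E10.5 and the adult was -1.05, only just past the limit. With median-of-ratios scaling these adult differences were -0.79 and -0.64, and against the median of its length class -0.71 and -0.67, so that they no longer passed it.

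Fn1 (chromosome 1, 71585396 to 71653250, minus strand) encodes fibronectin, the cell-adhesive glycoprotein on which other matrix proteins are assembled and which endocardium, cushions and fibroblasts make. For Fn1 the E10.5 library gave 305 FPKM (302 to 308), the E13.5 library 33.6 (32.8 to 34.4) and the adult library 80.4 (78.8 to 82.1). The E10.5 library was the highest by a wide margin and the E13.5 library the lowest, whereas Postn was highest at E13.5. Fn1 fell by 3.15 from E10.5 to E13.5, to 0.110 of its level. It then rose by 1.23 to the adult, 2.39-fold, and remained lower than at E10.5 by a difference of -1.91. Of the 12569 mRNA loci, 5 fell further than Fn1 from E10.5 to E13.5. These were Gm5506, Ss18, Rock1, Mid1 and Ttn, named after their values were seen, of which Ss18 and Rock1 were listed at 0 at E13.5.

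The fall of Fn1 at E13.5 stood beside a trend with transcript length. Over all mRNA loci, the median change from E10.5 to E13.5 went from 0.57 for transcripts shorter than 1 kb to -0.41 at 8 to 12 kb and -0.73 at 12 kb or more (Spearman's rho -0.469 across loci, a description). The longest reference transcript of Fn1 has 8312 nt, and 15.7% of the 746 loci in its length class of 8 to 12 kb fell. Set against the median of that class, the change of Fn1 was -2.73, and 1 locus of the class, Rock1 with its listed 0 at E13.5, fell further. The genes that rose had the opposite sign of the trend where they were long. Against their class of 6 to 8 kb, with a median of -0.21, the changes of Tnc and Pdgfra were 1.51 and 1.64. Between E13.5 and the adult rho was 0.220, and between E10.5 and the adult -0.002. The part of this trend in the single values was not tested beyond that subtraction.

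**Figure D2:**
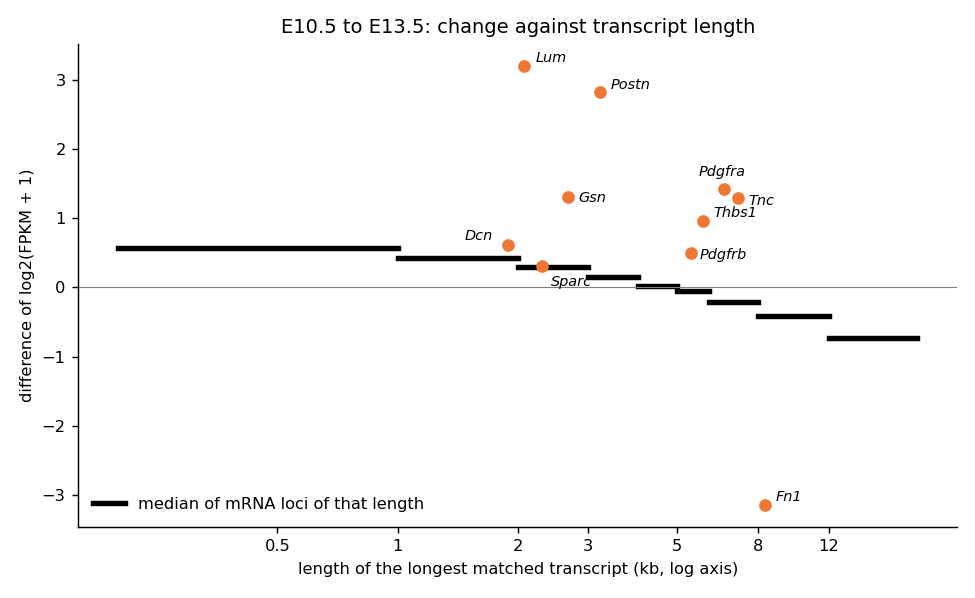
Change from E10.5 to E13.5 as a difference of log2(FPKM + 1) (vertical axis) against the length of the longest matched transcript in kb (log axis), with the 10 genes as points and the median of all mRNA loci in each length class as black bars. The bars descend from 0.57 to -0.73, Lum, Postn, Gsn, Tnc, Pdgfra, Thbs1, Pdgfrb and Dcn lie above the bar of their length, Sparc lies on it, and Fn1 lies far below its bar.

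Fibronectin exists in forms with and without a pair of alternatively spliced type III repeats, and the forms that contain them are known from embryos, healing wounds and activated fibroblasts. The deposited locus joined the 46-exon RefSeq transcript with 4 assembled transcripts. Exon 25, which encodes extra domain B (EIIIB) and spans chr1:71613763-71614035, was skipped in 4 of the 4 assembled transcripts. Exon 33, which encodes extra domain A (EIIIA) and spans chr1:71603660-71603929, was skipped in 3 of them and kept in 1. With 273 and 270 nt, both are multiples of 3, so skipping them keeps the reading frame. The transcripts were merged over the libraries and have no level of their own here, so the stage at which an exon was skipped cannot be read. The exon sequences are shown because they are the stretches by which these fibronectin forms differ (minus strand, read from GRCm38.p6, no letter marked):
Fn1 exon 25: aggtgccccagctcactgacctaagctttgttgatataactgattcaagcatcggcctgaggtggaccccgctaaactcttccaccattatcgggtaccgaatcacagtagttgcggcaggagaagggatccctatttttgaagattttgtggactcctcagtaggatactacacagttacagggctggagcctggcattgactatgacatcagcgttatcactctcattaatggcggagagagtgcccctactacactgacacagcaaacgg
Fn1 exon 33: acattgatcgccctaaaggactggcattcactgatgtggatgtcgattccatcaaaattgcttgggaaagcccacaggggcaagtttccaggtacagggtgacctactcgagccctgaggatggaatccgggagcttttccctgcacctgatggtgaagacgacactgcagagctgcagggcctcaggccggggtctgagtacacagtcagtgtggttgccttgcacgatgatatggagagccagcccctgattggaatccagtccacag

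Tnc (chromosome 4, 63959560 to 64047015, minus strand) encodes tenascin C, a hexameric matricellular protein of remodeling tissue that modulates adhesion to fibronectin. Tnc was the lowest of the 10 genes in each library. The E10.5 library gave 2.97 FPKM (2.64 to 3.33), the E13.5 library 8.74 (8.32 to 9.17) and the adult library 1.37 (1.14 to 1.62). As with Postn, the E13.5 library was the highest and the adult library the lowest, and none of the 3 intervals overlapped. Tnc rose by 1.30 and then fell by 2.04, with -0.75 between E10.5 and the adult. With a pseudocount of 5 in place of 1 these steps were 0.79, short of the limit, and -1.11, and with a pseudocount of 0.1 the difference between E10.5 and the adult was -1.06, past it. The locus held 1 reference and 8 assembled transcripts. Exons 11 to 14 of the 26-exon reference transcript, each of 273 nt and encoding fibronectin type III repeats, were kept in 2 and skipped in 5 assembled transcripts, and exon 15, also of 273 nt, was kept in 4 and skipped in 3. The promoter window of Tnc is shown for comparison with that of Postn, since both genes rose and then fell. It covers the 250 bases before position 64047015 (chr4:64047016-64047265, minus strand, GRCm38.p6, from RefSeq). The capitals mark GGGCGG, a GC box word, at 167 to 162 bases and TATAAA at 126 to 121 bases before the start:
Tnc promoter: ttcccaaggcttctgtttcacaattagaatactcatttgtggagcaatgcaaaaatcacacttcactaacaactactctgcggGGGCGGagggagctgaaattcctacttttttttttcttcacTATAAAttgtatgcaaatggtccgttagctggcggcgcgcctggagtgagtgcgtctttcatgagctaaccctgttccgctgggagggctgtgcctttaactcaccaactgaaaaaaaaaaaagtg

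Thbs1 (chromosome 2, 118111651 to 118127363, plus strand) encodes thrombospondin 1, a matricellular protein of platelets and stressed tissue that activates latent TGF-beta and restrains vessel growth. For Thbs1 the E10.5 library gave 16.4 FPKM (15.5 to 17.3), the E13.5 library 32.8 (31.9 to 33.8) and the adult library 25.8 (24.7 to 27.0). The differences were 0.96, -0.33 and 0.63 in the order E10.5 to E13.5, E13.5 to adult and E10.5 to adult, and none reached the limit. With median-of-ratios scaling the difference between E13.5 and the adult was 0.22 and that between E10.5 and the adult 1.02, so the order of the later libraries depended on the scaling. Against the median of its length class, the step to E13.5 was 1.02. Of 5 platelet markers, 1 rose and none fell to E13.5, against 5.89% and 4.85% of all mRNA loci. Set against 32.1% of all mRNA loci that fell to the adult, 3 of these markers fell and none rose (median -1.22). Their summed levels were 23.7, 39.3 and 45.6 FPKM, of which Pf4, a platelet chemokine, supplied most, and the part of platelets in the level of Thbs1 was not tested.

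Dcn (chromosome 10, 97479500 to 97518162, plus strand) encodes decorin, a small leucine-rich proteoglycan that binds collagen fibrils and TGF-beta. For Dcn the E10.5 library gave 49.5 FPKM (46.9 to 52.3), the E13.5 library 75.9 (73.5 to 78.4) and the adult library 351 (344 to 358). The adult library was far above both embryonic libraries. The difference was 0.61 from E10.5 to E13.5, and Dcn then rose by 2.19, or 4.62-fold. From E10.5 to the adult it rose by 2.80, with 304 of 12569 mRNA loci rising further, and it became the highest of the 10 genes.

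Lum lies 47338 bp downstream of Dcn on the same strand (chromosome 10, 97565501 to 97572703) and encodes lumican, a related proteoglycan that governs collagen fibril spacing. For Lum the E10.5 library gave 6.31 FPKM (5.42 to 7.30), the E13.5 library 66.3 (64.2 to 68.5) and the adult library 23.2 (21.4 to 25.005). Both genes were lowest at E10.5, but Lum was highest at E13.5 and Dcn in the adult. It rose by 3.20 to E13.5, or 10.51-fold, and 23 mRNA loci rose further. It then fell by 1.48, which still left it above E10.5 by 1.73. With median-of-ratios scaling the difference between E13.5 and the adult was -0.92, and against the length class -0.83, both within the limit. The ratio of Dcn to Lum was 7.85, 1.14 and 15.1 in stage order (E10.5, E13.5, adult), and such a ratio within a library does not depend on the scaling. Kera and Epyc, which encode the proteoglycans keratocan and epiphycan and follow Lum on that stretch of chromosome 10, were at 0.0572 and 0.416 FPKM at E10.5 and 0.0449 and 0.569 at E13.5. Both were listed at 0 in the adult, and they were chosen for their position after their values were seen.

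Pdgfrb (chromosome 18, 61044983 to 61085067, plus strand) encodes PDGF receptor beta, the receptor of pericytes, smooth muscle cells and some fibroblasts. For Pdgfrb the E10.5 library gave 8.62 FPKM (7.96 to 9.31), the E13.5 library 12.5 (11.97 to 13.1) and the adult library 18.0 (17.0 to 19.0). The level was higher at each later stage, by 0.49 and again 0.49, and by 0.98 in all, just short of the limit. With median-of-ratios scaling the difference between E10.5 and the adult was 1.37 and that between E13.5 and the adult 1.02, both past it.

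Pdgfra (chromosome 5, 75152189 to 75198268, plus strand) encodes PDGF receptor alpha, the receptor tyrosine kinase that marks fibroblasts and their epicardial and cushion precursors. For Pdgfra the E10.5 library gave 11.8 FPKM (11.1 to 12.5), the E13.5 library 33.3 (32.5 to 34.2) and the adult library 16.2 (15.4 to 17.0). The level was highest at E13.5, and E10.5 and the adult were closer to each other. Pdgfra rose by 1.43, or 2.83-fold. The difference from E13.5 to the adult was -0.9985, just short of the limit, and with a pseudocount of 0.1 it was -1.04, past it. This was the difference closest to the limit among those that did not reach it, and that of Sparc from E10.5 to the adult, at -1.05, was the closest among those that passed it. The ratio of Pdgfra to Pdgfrb was 1.37, 2.66 and 0.901 in stage order, so the order of the receptors in the adult was the reverse of that in the embryo. In the adult, however, their counting intervals overlapped.

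Gsn (chromosome 2, 35256359 to 35307903, plus strand) encodes gelsolin, which severs and caps actin filaments inside cells and also circulates in a secreted form. For Gsn the E10.5 library gave 36.8 FPKM (34.9 to 38.8), the E13.5 library 92.8 (90.6 to 95.1) and the adult library 222 (217 to 227). Gsn was higher at each later stage and rose in both steps, by 1.31 and 1.25, which no other of the 10 genes did. The step to E13.5 was only just past the limit with sum scaling, at 1.002, and against the median of its length class, at 1.02. From E10.5 to the adult Gsn rose by 2.56, or 6.04-fold. The locus held 4 reference and 1 assembled transcript with 3 start sites, and RefSeq promoter windows were found for all 3. The window of the third start is shown because it holds the most matches to the words searched. It covers the 250 bases before position 35282380 (chr2:35282130-35282379, plus strand, GRCm38.p6). The capitals mark CCAAT, or ATTGG on the other strand, in 3 places at 233 to 229, 227 to 223 and 140 to 136 bases before the start, and GGGCGG at 12 to 7 bases:
Gsn promoter: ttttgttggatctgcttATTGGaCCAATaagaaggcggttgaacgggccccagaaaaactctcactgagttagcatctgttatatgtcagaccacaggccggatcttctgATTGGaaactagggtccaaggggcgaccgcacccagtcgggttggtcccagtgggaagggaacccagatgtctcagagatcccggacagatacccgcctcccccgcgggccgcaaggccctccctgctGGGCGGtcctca

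The promoter windows were searched on both strands for 6 words, the TATA box as TATAAA, the CCAAT box in its own letters, the GC box as GGGCGG, the AP-1 site as TGACTCA, the TEAD site as GGAATG and an E-box as CAGCTG. Windows of 250 bases were found for 5 of the 10 genes, Postn, Sparc, Tnc, Pdgfra and Gsn, with 9 windows in all. Dcn, Lum, Fn1 and Thbs1 had none in the table used. Windows on chromosome 18, where Pdgfrb lies, were left out for the 10 genes, so Pdgfrb was not searched. Of 32851 RefSeq promoter windows of that length, 12.4% held TATAAA, 33.8% CCAAT, 32.7% GGGCGG, 4.46% TGACTCA, 12.6% GGAATG and 13% CAGCTG. The letters TATAAA were present in 1 of the windows of Postn and in both overlapping windows of Tnc. CAGCTG was present in the window of Sparc and in those of the other Gsn starts. TGACTCA and GGAATG were in none of the 9 windows. In the 3 windows printed, no matches overlapped each other. Their GC content was 52% for Postn, 44.8% for Tnc and 57.6% for Gsn, against a median of 52.4% over all windows. A match of letters describes the window and shows no binding.

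**Figure D3:**
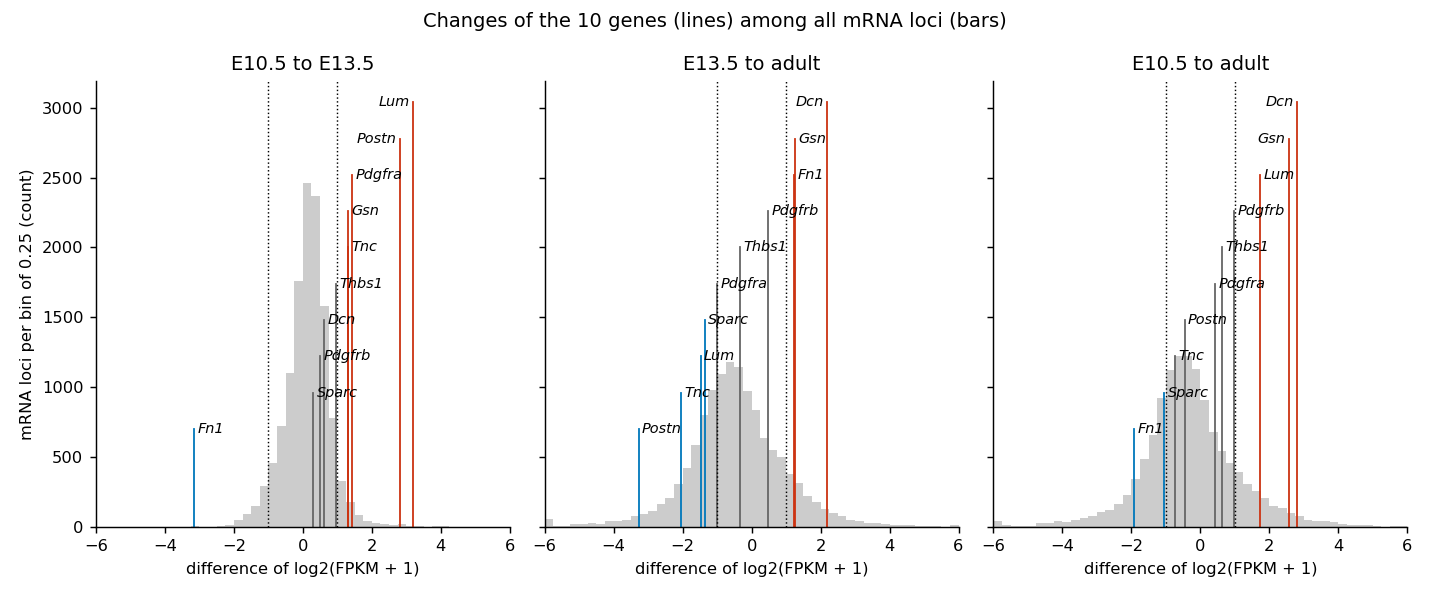
Changes of the 10 genes (lines, with heights set only to separate the labels) among all 12569 mRNA loci (grey bars, number of loci per bin of 0.25) as differences of log2(FPKM + 1) in the 3 comparisons, with the limit of 1 dotted, red for higher, blue for lower and grey for within the limit. Lum at 3.20 and Fn1 at -3.15 lie in opposite tails from E10.5 to E13.5, and the bars of the comparisons with the adult are centered below 0.

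The stage of the highest level was E13.5 for 6 of the 10 genes, the adult for 3 and E10.5 for 1. Of the 12569 mRNA loci, 46.7% were highest at E13.5, 26.5% in the adult and 26.8% at E10.5. With sum scaling Sparc was marginally higher at E10.5 than at E13.5, and with median-of-ratios scaling Thbs1 was higher in the adult than at E13.5.

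The order of the levels also differed between stages. At E10.5 it ran Sparc, Fn1, Dcn, Gsn, Postn, Thbs1, Pdgfra, Pdgfrb, Lum and Tnc, and no neighbors in this order had overlapping counting intervals. At E13.5 it ran Sparc, Postn, Gsn, Dcn, Lum, Fn1, Pdgfra, Thbs1, Pdgfrb and Tnc, where Fn1 overlapped with Pdgfra and Pdgfra with Thbs1. In the adult it ran Dcn, Gsn, Sparc, Fn1, Thbs1, Lum, Postn, Pdgfrb, Pdgfra and Tnc, where Thbs1 overlapped with Lum, Postn with Pdgfrb and Pdgfrb with Pdgfra. Postn moved from the fifth place to the second and then to the seventh, and Fn1 from the second to the sixth and then to the fourth.

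As deposited, the summed level of the 10 genes was 786, 943 and 912 FPKM in the E10.5, E13.5 and adult libraries. Its size depends on the scaling, for which the median-of-ratios factors were 1.07, 1.19 and 0.804. Shares within a library do not depend on it. Sparc and Fn1 together held 79.9%, 45.8% and 25.9% of the summed level in stage order. Dcn and Gsn held 10.99%, 17.9% and 62.8%. Sparc and Postn held 44.3%, 62.2% and 19.1%. The ratio of Postn to Dcn, free of the scaling, was 0.521, 2.48 and 0.0529, and that of Sparc to Fn1 was 1.06, 11.9 and 1.93. Such ratios and shares still carry the trend with transcript length. From E10.5 to E13.5 the median of the length class was 0.30 for Sparc and -0.41 for Fn1.

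**Figure D4:**
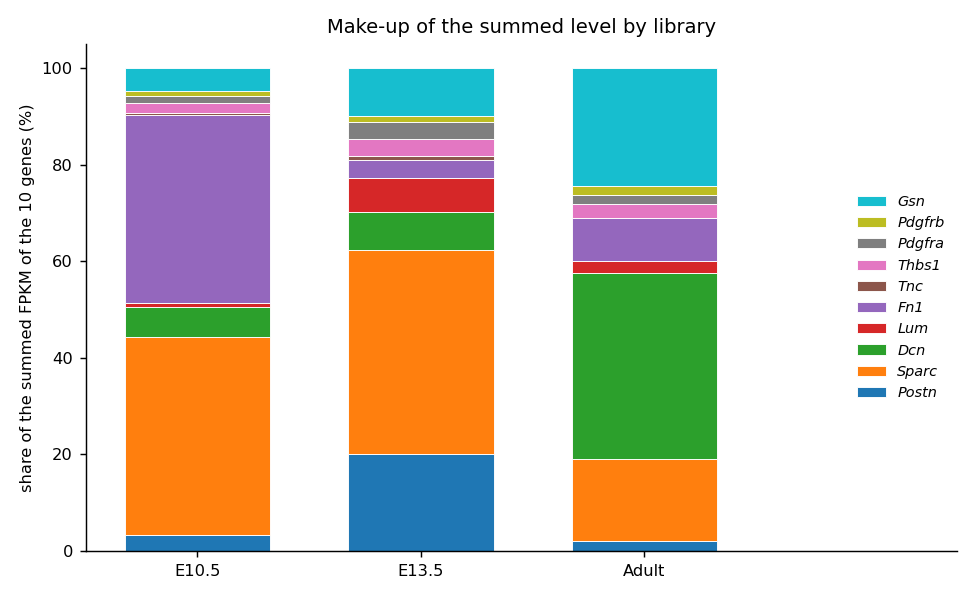
Share of each gene in the summed FPKM of the 10 genes (vertical axis, percent) in the E10.5, E13.5 and adult libraries. Fn1 takes 38.8% at E10.5 and 3.56% at E13.5, Postn reaches 19.98% at E13.5, and Dcn takes 38.5% in the adult.

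Genes of the same families and matrix roles were listed for comparison. Of 80 such genes, 71 reached 1 FPKM in some library. From E10.5 to E13.5, 20 of the 71 rose and 5 fell (median 0.63). From E13.5 to the adult, 12 rose and 32 fell (median -0.87), and from E10.5 to the adult, 22 were higher and 22 lower (median -0.11). With median-of-ratios scaling 20 rose and 24 fell from E13.5 to the adult, and 26 were higher and 15 lower between E10.5 and the adult, so the excess of falls depended on the scaling. As deposited, 5.89% of all mRNA loci rose and 4.85% fell at the step to E13.5. The shares were 13.0% and 32.1% from E13.5 to the adult, and 14.8% higher and 27.3% lower between E10.5 and the adult. These shares are to be set beside the counts of each list below.

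Relatives of Sparc differed among themselves. Of 6 measured members of the SPARC family besides Sparc, 3 rose to E13.5 and none fell, and 1 rose and 3 fell to the adult, as Sparc did. Sparcl1, which encodes hevin, was at 5.71, 11.9 and 99.5 FPKM in stage order, and rose while Sparc fell in the adult. Fstl1, a secreted glycoprotein with a follistatin domain, was at 172, 275 and 27.8 FPKM and, like Sparc, was highest at E13.5. It fell by 3.26 to the adult.

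The relatives of Dcn and Lum were mostly higher in the adult. Of 6 other small leucine-rich proteoglycans at 1 FPKM or more, 4 rose and 1 fell from E13.5 to the adult. Ogn, which encodes osteoglycin, was at 6.06, 12.7 and 79.7 FPKM, and Aspn, which encodes asporin, at 1.70, 5.76 and 18.3. The gene that fell was Fmod (fibromodulin), at 2.43, 3.51 and 0.257 FPKM. Bgn (biglycan), the highest of the list in the embryo and the second highest in the adult, was at 22.5, 22.3 and 38.7 FPKM and stayed within the limit in each comparison.

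Among thrombospondins, Thbs4 fell at both steps, at 34.8, 7.91 and 0.877 FPKM, whereas Thbs2 was at 0.681, 7.61 and 7.598 FPKM and rose to E13.5. In the tenascin list, 2 of 3 genes stayed below 1 FPKM, and Tnxb, the tenascin of elastic connective tissue, was at 0.467, 0.267 and 6.47 FPKM and rose to the adult while Tnc fell. In the list of fasciclin-domain and CCN genes, Tgfbi, the relative of Postn that encodes another fasciclin-domain protein, was at 16.5, 54.6 and 19.1 FPKM, with changes of 1.67 and -1.47. Of the 7 genes of that list, 3 rose and none fell to E13.5, and 2 rose and 4 fell to the adult. Spp1, which encodes osteopontin, was of those that rose, at 0.167, 1.60 and 30.7 FPKM.

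The ligands of the PDGF receptors differed among themselves. Pdgfa, the ligand of PDGF receptor alpha, was at 9.02, 18.8 and 8.55 FPKM, with 0.98 to E13.5 and a fall of 1.05 to the adult. Pdgfb, the ligand of both receptors made largely by endothelium, was at 0.781, 3.35 and 9.62 FPKM and rose at both steps. Pdgfc, another ligand of PDGF receptor alpha, fell to the adult, at 2.48, 2.88 and 0.871 FPKM, and Pdgfd stayed within the limit at 9.73, 5.07 and 9.48 FPKM.

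Of the genes that act on fibronectin and elastic fibers, 3 of 10 rose and 3 fell to E13.5, and none rose and 6 fell to the adult. Eln (elastin) was at 0.866, 87.4 and 6.86 FPKM and rose by 5.57 to E13.5, more than any of the 10 genes described above. Fbln5, which encodes fibulin 5 and tethers elastin to cells, was at 0.457, 15.1 and 2.60 FPKM. The 3 genes that fell to E13.5 were Itga5, which encodes the alpha chain of the fibronectin receptor, and the fibrillin genes Fbn1 and Fbn2. Itga5 was at 27.0, 7.90 and 7.42 FPKM. Fbn1 and Fbn2 have long transcripts of 9900 and 10480 nt, like Fn1, and their differences against the median of their length class were smaller, at -0.79 and -1.08.

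The gelsolin family held 6 measured genes besides Gsn, of which 2 rose and none fell to E13.5, and 1 rose and 1 fell to the adult. Capg, a capping protein of macrophages and other cells, was at 2.22, 14.1 and 10.4 FPKM. Svil (supervillin), the highest of the list at E10.5 and in the adult, was at 42.9, 30.3 and 62.6 FPKM and rose by 1.02 to the adult.

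Myofibroblast and activation genes fell to the adult in 6 of 9 cases and none rose, where 32.1% of all mRNA loci fell and 13.0% rose. Acta2, the smooth muscle actin that embryonic cardiomyocytes also express, was at 1090, 836 and 124 FPKM. Cthrc1, a secreted collagen triple helix protein of activated fibroblasts, was at 6.78, 42.8 and 0.585 FPKM, and Meox1, a homeobox factor linked to fibroblast activation, at 0.880, 23.8 and 3.51. Both rose to E13.5 and fell to the adult, as did Postn. Of the 9 genes of this list, however, only 3 rose to E13.5, and 1 fell. The gene that fell was Tgfb1, at 8.25, 1.88 and 3.45 FPKM. Of 8 measured collagen crosslinking genes, 2 rose to E13.5, Lox and Loxl1, and 4 fell to the adult. The highest of them, Serpinh1, the collagen chaperone, was at 391, 562 and 147 FPKM and fell by 1.92 to the adult.

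For each of the 10 genes, the companion gene nearest in its pair of stepwise changes was sought among 47 that reached 10 FPKM in any library. The distance is Euclidean over the 2 log2 steps, and it describes 3 libraries. The nearest pairs were Pdgfrb with Timp3 (distance 0.034), an inhibitor of matrix proteases, and Pdgfra with Tgfb3 (0.13), a TGF-beta ligand. Lum was nearest to Lox (0.33), the enzyme that crosslinks collagen and elastin, and 3 of all mRNA loci, Lox included, were at least as near. Tnc was nearest to Loxl1 (0.21), Gsn to Aspn (0.27), Sparc to Plod2 (0.40), Thbs1 to Timp2 (0.46) and Dcn to Ogn (0.51). Postn with Meox1 (1.22) and Fn1 with Itga5 (1.99) were the least close. For Sparc, 1374 mRNA loci, Plod2 included, were at least as near, so its time course was a common one in these libraries. The same number was 543 for Thbs1, 179 for Fn1, 149 for Dcn and 33 for Postn. It was 24 for Tnc, 19 for Gsn and 9 each for Pdgfra and Pdgfrb.

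**Figure D5:**
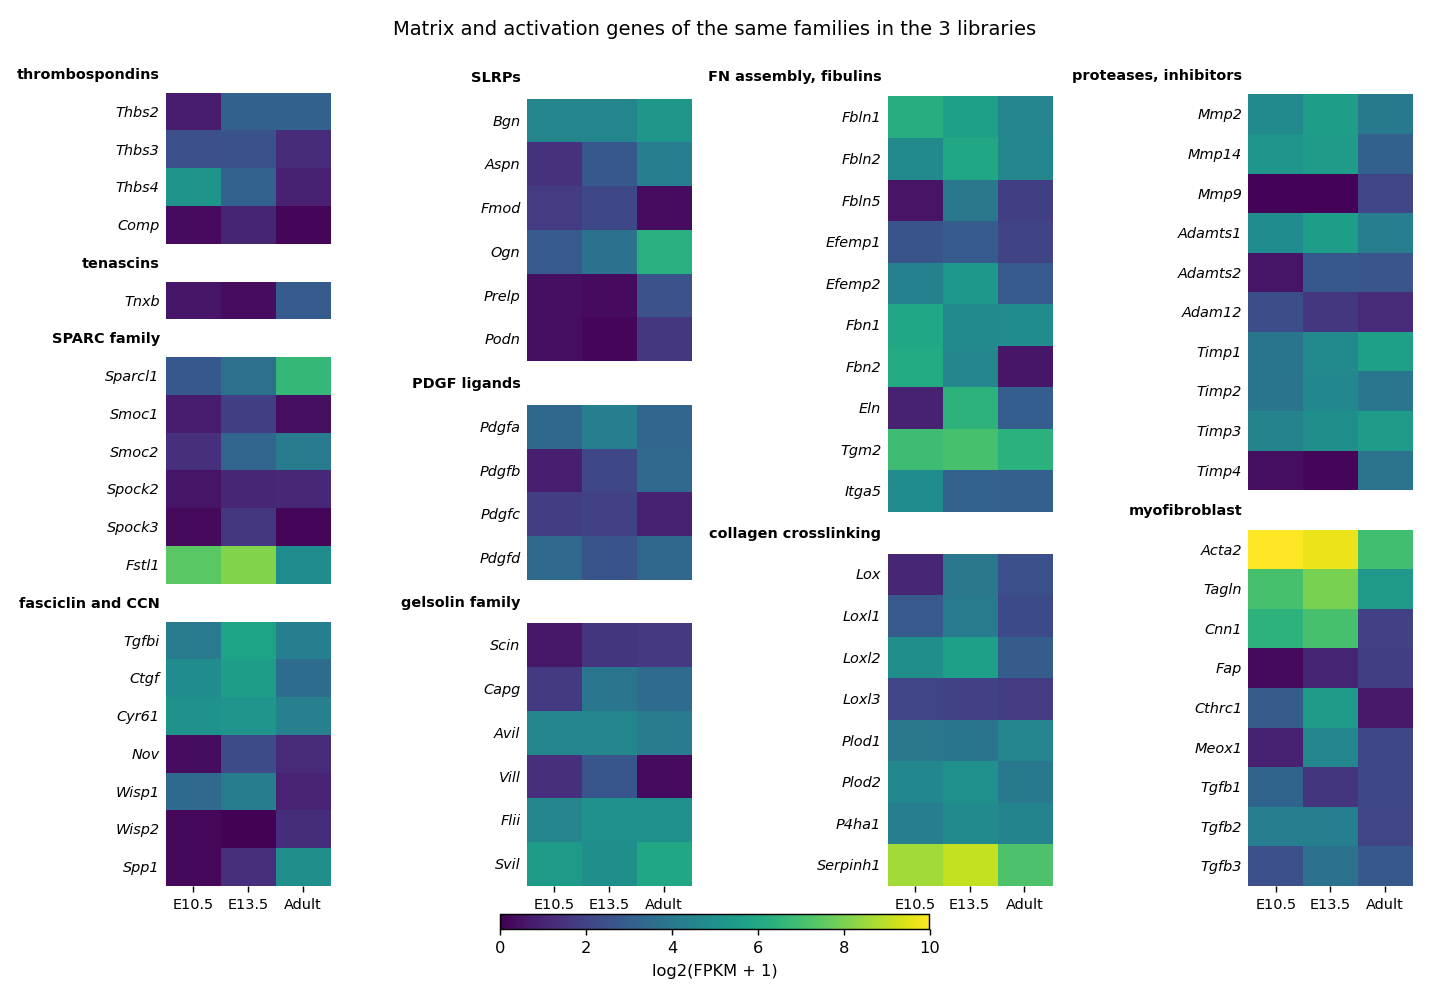
Levels of the 71 companion genes at 1 FPKM or more in any library, as log2(FPKM + 1) on a color scale from 0 to 10, in the E10.5, E13.5 and adult libraries (columns) by gene list (bold headings; SLRPs are small leucine-rich proteoglycans and FN is fibronectin). Eln, Fbln5, Lox, Cthrc1 and Meox1 are brightest at E13.5, and Sparcl1, Ogn and Timp4 in the adult.

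Markers of cell types were read beside these values. The shares to set beside their counts are again those of all mRNA loci, 5.89% higher and 4.85% lower at the step to E13.5. At the step to the adult they were 13.0% and 32.1%. The label of fibroblast genes was compared with 9 fibroblast markers, all of which reached 1 FPKM in some library. Of these, 3 rose and 1 fell to E13.5, and 3 rose and 4 fell to the adult. Tcf21, a transcription factor of epicardial and fibroblast precursors, was at 18.3, 22.9 and 1.79 FPKM, while Pi16, a surface protein of resting adult fibroblasts, was at 0.853, 1.84 and 12.1. The fibroblast markers thus split between embryo and adult, as did the 10 genes. Their sum was 786, 1335 and 275 FPKM, and the largest part in each library was Vim, which many embryonic cells express.

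Levels of the markers of other cell types differed between the libraries as well, and so did those of many other loci. From E13.5 to the adult, 13.0% of all mRNA loci rose and 32.1% fell as deposited. The 6 cushion and valve markers summed to 393, 119 and 18.8 FPKM, and all 6 fell from E13.5 to the adult. From E10.5 to E13.5, 2 of the 6 fell, Hapln1 and Vcan, which carry most of that sum, and 1 rose, Twist1. Vcan has a long transcript of 12432 nt. The 5 epicardial markers summed to 110, 108 and 16.5 FPKM, and 4 of 5 fell to the adult. The 6 mural cell markers summed to 84.0, 72.8 and 374 FPKM, of which 4 rose to the adult. The 6 macrophage markers summed to 7.22, 54.9 and 173 FPKM and 6 of 6 rose to the adult. The 6 endothelial markers summed to 290, 214 and 283 FPKM, with 2 falling to E13.5. The 6 cardiomyocyte markers summed to 14800, 21988 and 33258 FPKM. Of 5 liver markers, 3 rose to E13.5 (median 1.35) and 5 fell to the adult, where Alb was listed at 0, and their sum was 8.55, 22.7 and 1.52 FPKM. Of 5 erythroid markers, 1 rose and 1 fell to E13.5 and 4 fell to the adult, and their sum was 6758, 16349 and 24.5 FPKM. The globin genes Hbb-y, Hbb-bh1 and Hba-x made up most of that sum in the embryo. Alas2, by contrast, was at 18.2, 34.1 and 19.6 FPKM. None of 6 proliferation genes changed past the limit to E13.5, and 6 of 6 fell to the adult. Of the other markers in this paragraph, none was listed at 0 in any library. The part of these cell types in the changes of the 10 genes was not tested.

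The introns of the 10 loci were compared with a second annotation. Of 199 introns of their reference transcripts, 198 were introns of GENCODE M21 on GRCm38, but these transcripts were themselves matches to RefSeq. New introns of the assembled transcripts were found there less often, with 3 of 5 for Fn1, 2 of 8 for Tnc and 0 of 2 for Thbs1. For Pdgfrb and Gsn it was 0 of 1, and for Postn, Sparc and Pdgfra 1 of 1. In Postn, 3 exons of 81, 78 and 84 nt, and in Gsn 1 exon of 84 nt, were skipped in some transcripts, so that all 11 skipped exons found in Postn, Fn1, Tnc and Gsn had lengths that are multiples of 3. A search for loci on the opposite strand, starting within 3000 bp of a start or overlapping a gene body, found 1 next to the 10 genes. This was Apol7d, starting 82 bp from Fn1 (chromosome 1, 71653332 to 71662843, plus strand), at 0.939, 0.771 and 0.145 FPKM.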

How the data were processed

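Total RNA of heart ventricle was sequenced in 1 library per stage. Per the study's text and the labels, the authors mapped paired-end reads to mm10 with TopHat2 (with Bowtie) and assembled them with Cufflinks, in runs that used UCSC transcript annotations and in runs that did not. Version numbers and further options are not given in the sources used here. The deposited values are FPKM per merged locus and library, made by the authors, with a transcript annotation beside them. No column was left unmapped to a sample (0 columns), and fragment counts are not used here, so no count test was run.

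Members were matched by gene name to loci holding a matching RefSeq protein-coding transcript. Differences of log2(FPKM + 1), with a pseudocount of 1, were called at 1 or more against the 12569 mRNA loci at 1 FPKM or more in any library. Depth was taken from the smallest step in FPKM times length at unspliced loci, and the intervals are exact Poisson intervals at 95%. Such intervals cover counting error only. The deposited columns sum to 601115, 808971 and 443471 FPKM. Alternatives were pseudocounts of 0.1 and 5, median-of-ratios factors (1.07, 1.19 and 0.804), sum scaling without globin and mitochondrial loci (0.934, 1.16 and 0.923), a call at 2, no filter on low values, leaving out loci that join genes, and subtraction of length class medians.

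The 10 genes and the companion and marker lists were chosen with earlier results of these data known. Companions could be named if they were the 2 highest of their list, changed past the limit, or were nearest in pattern to a member, and not all that met this are named. Kera and Epyc are named outside it. Scripts were tested on simulated data. Calculations used Python 3.11.15, numpy 2.4.6, scipy 1.17.1 and matplotlib 3.10.9.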

Additional observations from a re-analysis of the deposited data

How the results depend on the processing

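Each count of genes that rose or fell, each median and each change of the 10 genes was recalculated under the alternatives, and no called change turned its direction. Of the values that answer a comparison, 60 stayed within 1.5 times or within the set limit and 9 moved further. With a limit of 2 in place of 1, the numbers of genes that rose or fell became 2 higher from E10.5 to E13.5, 1 higher and 2 lower between E13.5 and adult, and 0 lower between E10.5 and adult. With median-of-ratios scaling, 2 were lower between E13.5 and adult (Postn and Tnc), and 5 were higher and 1 lower between E10.5 and adult. Subtraction of length class medians, chosen after seeing the data, left 2 lower between E13.5 and adult and 1 lower between E10.5 and adult. Of the other values, 182 stayed and 16 moved. Among all mRNA loci, the calls from E13.5 to the adult were 1637 higher and 4029 lower as deposited and 2618 and 2380 with median-of-ratios scaling. From E10.5 to the adult they were 1856 and 3430 as deposited and 2510 and 2311 with that scaling. From E10.5 to E13.5 they were 740 and 609, which became 526 and 790 with median-of-ratios and 422 and 1086 with sum scaling. Median-of-ratios scaling thus moved the median of all mRNA loci from -0.50 to -0.03 for E13.5 to adult and from -0.40 to -0.06 for E10.5 to adult. No paired analysis was possible because there was 1 library at each stage. With 1 library per stage, the variation between animals is unknown, and depth limits mainly Tnc in the adult and Lum at E10.5, which rest on about 134 and 181 fragments.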

Other observations

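Matrix proteases and their inhibitors were measured as well. Of 10 such genes, 1 rose and none fell from E10.5 to E13.5, and 2 rose and 3 fell from E13.5 to the adult. The protease genes Mmp2 and Mmp14 were at 26.3, 48.1 and 15.5 FPKM and at 36.3, 45.4 and 7.49 FPKM in the E10.5, E13.5 and adult libraries, and both fell to the adult. Adamts2, which trims the ends of procollagen, rose to E13.5 and was at 0.468, 5.81 and 5.16 FPKM. Timp4, the tissue inhibitor of metalloproteinases that is abundant in the adult heart, was at 0.307, 0.142 and 13.3 FPKM. Timp1 and Timp3 were at 50.3 and 43.6 FPKM in the adult, with 26.6 and 30.8 at E13.5.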
